A study of Homo sapiens with 7 samples.

Results

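Trimethylation of lysine 4 on histone H3 (H3K4me3) was examined in HepG2 by the width of the stretches of chromatin that carry it. HepG2 is an established human line from a liver tumour that keeps much of the hepatocyte gene programme. The members were all 85714 H3K4me3 peaks, of 319086 peaks of 5 histone marks in all, and each peak was 146 bp and stood for 1 nucleosome. Peaks were joined into a stretch when the start of one lay at most 500 bp from the start of the next on the same chromosome, which gave 25043 stretches.

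The series holds 7 samples of HepG2, with no treatment named in the labels: RNA-Seq, native MNase-Seq, and ChIP-Seq of H3K4me3, the acetylation marks H3K9ac and H3K27ac, and the repressive marks H3K9me3 and H3K27me3. Each assay has 1 sample, so values have no replicate error, no P value was computed, and intervals are 95% intervals over peaks, stretches or genes that cover counting error only. Peaks were called at the 14217405 nucleosome positions of the MNase-Seq map, so every mark can be matched nucleosome by nucleosome. RNA-Seq values are FPKM, fragments per kilobase of transcript scaled to the mapped fragments of the library, in 2 columns of 1 sample that are given in the order of the table, and "FPKM" alone means their mean. Read depth behind a peak or an FPKM value is unknown, since the lists hold no counts.

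H3K4me3 is placed by the SET1 and MLL methyltransferase complexes and is found on the nucleosomes that flank active promoters, where it is bound by reader proteins such as the TFIID subunit TAF3. Unmethylated CpG islands attract some of these complexes through CXXC-domain proteins, so many promoters carry the mark at low transcription too. Broad H3K4me3 domains have been described at genes of cell identity and at tumour suppressors, while H3K9ac and H3K27ac are acetylation marks of active promoters and enhancers.

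The labelled cell type was checked first. All 10 liver markers had at least 12.5 FPKM, with ALB (albumin) at 10010.73 FPKM. Blood markers were absent: PTPRC and CD3E were listed at 0, and the highest of the 4 was HBA1 at 0.0434 FPKM. Of the other lists, 2 of 4 fibroblast markers (at most 2.005 FPKM), 2 of 3 neuron markers (at most 4.59 FPKM), 0 of 3 endothelium markers and 1 of 3 muscle markers (at most 3.71 FPKM) reached 1 FPKM.

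Promoter sequences of 5 genes introduce the range of places that carry long stretches of H3K4me3 in these cells. They were chosen after their widths and FPKM had been seen: NQO1 lies under the widest stretch of all, FST (follistatin, which binds and blocks activin) is expressed from a CpG-rich promoter, ALB and AFP (alpha-fetoprotein, the fetal counterpart of albumin) are liver genes with few CpG, and FAM46C, now named TENT5C, is silent here and CpG-rich, with a stretch of 1701 bp. Each is the 250 bases before the gene's start in RefSeq on GRCh38.p14, 5′ to 3′ on the gene's strand, with each CG in capitals. The stretches themselves are in hg19 and positions were not converted.
NQO1, chr16:69726561-69726810, minus strand: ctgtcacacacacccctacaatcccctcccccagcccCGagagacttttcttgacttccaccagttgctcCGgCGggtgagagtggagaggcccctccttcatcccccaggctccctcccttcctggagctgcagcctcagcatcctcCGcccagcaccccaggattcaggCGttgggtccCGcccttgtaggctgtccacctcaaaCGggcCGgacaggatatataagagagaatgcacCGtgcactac
FST, chr5:53480379-53480628, plus strand: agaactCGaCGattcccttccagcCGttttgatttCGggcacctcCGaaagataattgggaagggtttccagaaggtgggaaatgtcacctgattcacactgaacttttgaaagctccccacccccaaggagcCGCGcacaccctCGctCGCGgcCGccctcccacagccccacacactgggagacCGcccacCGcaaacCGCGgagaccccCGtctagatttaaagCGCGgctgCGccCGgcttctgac
ALB, chr4:73404037-73404286, plus strand: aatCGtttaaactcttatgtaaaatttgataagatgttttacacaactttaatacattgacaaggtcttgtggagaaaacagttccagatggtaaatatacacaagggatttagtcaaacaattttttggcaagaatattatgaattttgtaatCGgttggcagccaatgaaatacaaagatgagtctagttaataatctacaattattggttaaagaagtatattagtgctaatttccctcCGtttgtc
AFP, chr4:73435971-73436220, plus strand: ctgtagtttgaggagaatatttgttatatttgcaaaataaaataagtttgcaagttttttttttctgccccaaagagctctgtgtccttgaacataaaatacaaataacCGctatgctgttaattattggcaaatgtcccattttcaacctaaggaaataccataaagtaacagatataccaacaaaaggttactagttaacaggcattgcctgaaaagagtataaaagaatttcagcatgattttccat
FAM46C, chr1:117605798-117606047, plus strand: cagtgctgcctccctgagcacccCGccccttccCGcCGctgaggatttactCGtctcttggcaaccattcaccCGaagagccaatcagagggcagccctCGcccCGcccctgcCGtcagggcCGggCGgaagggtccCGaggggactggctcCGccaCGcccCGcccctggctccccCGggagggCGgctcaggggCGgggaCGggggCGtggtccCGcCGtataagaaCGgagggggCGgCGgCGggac
In these 250 bases CG, which reads the same on both strands, occurs 9 times in NQO1, 20 in FST, 3 in ALB, 1 in AFP and 25 in FAM46C. Of all 35116 promoter entries of the RefSeq table, 93.9% hold at least 1 CG in this window, with a median of 11.

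The typical H3K4me3 stretch was short, and wide ones were few. The median width was 521 bp (511 to 526) and the median number of peaks was 3. The 90th percentile was 1511 bp, the 99th was 2421 bp, and the widest stretch of all reached 4006 bp. A single peak made up 7032 stretches (28.1%). Another 11832 stretches (47.2%) were under 1 kb, 5418 (21.6%) were 1 to 2 kb, 701 (2.80%) were 2 to 3 kb, 59 were 3 to 4 kb and 1 was wider. Stretches of 2 kb or more, called wide from here on, thus numbered 761, which is 3.04% (2.83 to 3.26) of the stretches and 9.69% of the peaks. This share follows the joining distance, with 0.222% at 300 bp and 9.63% at 1000 bp. The limit does not mark a break in the distribution, since the widest stretch below it was 1999 bp and the narrowest above it 2001 bp. Wide stretches held 6 to 21 peaks each, with a median of 10.

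**Figure D1:**
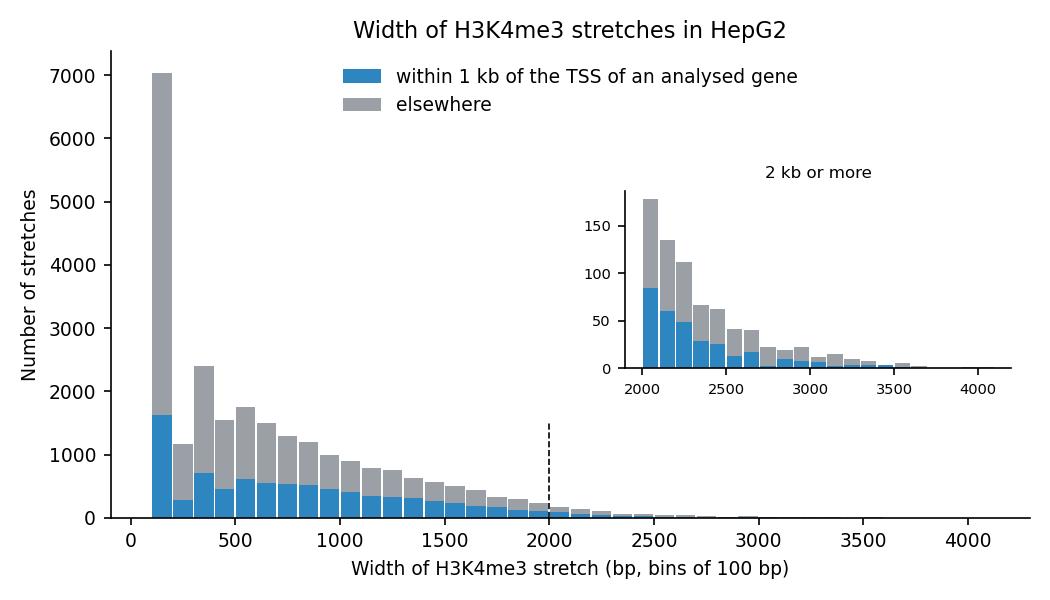
Number of H3K4me3 stretches (y axis) by width in bins of 100 bp (x axis), with stretches at most 1 kb from an analysed TSS in blue and all others stacked on them in grey; the dashed line marks 2 kb and the inset enlarges the stretches of 2 kb or more. The first bar holds the 7032 single peaks, and from 500 bp on the numbers fall towards the widest stretch of 4006 bp.

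H3K4me3 was joined into longer units than either acetylation mark under the same rule. H3K9ac gave 31001 stretches with a median of 291 bp, and H3K27ac gave 37106 with a median of 318 bp. Wide stretches made up 1.10% (0.984 to 1.22) of those of H3K9ac and 1.36% (1.24 to 1.48) of those of H3K27ac, against 3.04% for H3K4me3. The widest unit of H3K27ac, at 4578 bp, was nevertheless longer than that of H3K4me3. The libraries' depths are unknown, and their part in these differences was not tested.

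Neighbouring H3K4me3 peaks mostly sat on neighbouring nucleosomes. Starts of neighbouring peaks lay a median of 245 bp apart, and those of the 60671 joined neighbours 195 bp. Of the positions covered by stretches, 97.4% carried H3K4me3, and of those in wide stretches 95.4%, a share partly fixed by the joining rule. The joining limit fell on a smooth slope: 1662 neighbours had starts more than 450 and up to 500 bp apart, and 1308 more than 500 and up to 550 bp. The longest distance joined was 500 bp and the shortest left apart was 501 bp.

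Many stretches were separated from the next one by a short space that held no nucleosome position at all. A neighbour with a start more than 500 and up to 1500 bp away was found for 10453 stretches (41.7%), and 5590 such spaces were counted, with a median length of 494 bp. No position was called in 62.5% (61.3 to 63.8) of them. The spaces had 1.28 positions per kb, against 5.17 per kb inside stretches, a contrast largely set by the joining rule, since stretches begin and end on a position. A TSS of an analysed gene lay in 24.96% (23.8 to 26.1) of the spaces. Active promoters are known for a nucleosome-depleted region at the TSS. Where the joining rule leaves such a space open, the marked nucleosomes on either side count as 2 stretches.

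Positions of genes came from the coordinates of the loci in the expression table, with the TSS taken as the start of a locus on the plus strand and its end on the minus strand. Of 30032 loci, 13289 genes with coordinates and a symbol of their own were analysed. The inferred strand equalled that of the RefSeq promoter table for 9424 of 9469 genes (99.5%). A listed locus spans all its transcripts, so that its end can lie away from the promoter in use, as several genes below show.

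Of the 25043 stretches, 8584 (34.3%, 33.7 to 34.9) lay at most 1 kb from an analysed TSS. Another 16.4% lay at an end of some other listed locus, 30.9% inside a named locus, 0.619% inside an unnamed locus and 17.7% outside every locus. The shares differed between narrow and wide stretches. Place was scored by overlap, and a wider stretch meets a TSS window or a locus more readily. The part of this in the differences was not tested. The share at an analysed TSS was 23.2% (22.2 to 24.2) for single peaks, 34.9% below 1 kb, 46.2% (44.9 to 47.6) at 1 to 2 kb and 42.4% (38.9 to 46.0) for wide stretches. Outside every locus lay 31.2% of single peaks but 1.45% of wide stretches, which is 11 of 761.

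A stretch was found at the TSS of 6902 of 13289 genes (background 51.9%), with 1 stretch at 4870 genes, 2 at 1928 and 3 or 4 at 104. Where several lay there, the widest was taken as the gene's stretch. The genes' stretches had a median of 901 bp, and 355 genes had a wide one (background 5.14% of genes with a stretch and 2.67% of all analysed genes).

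Measured from the listed TSS, H3K4me3 reached mainly into the transcribed side of the gene. The listed TSS is the outermost end of a locus, so another start of the locus can lie downstream of it but not upstream. The part of this in the downstream reach was not tested. Over 5117 genes with a stretch and no other TSS within 10 kb, the stretch ended a median of 960 bp (943 to 976) downstream of the TSS and began 49 bp (37 to 63) downstream of it. The side on which it began turned with the joining distance: joined at up to 1000 bp, the median stretch began 235 bp upstream and ended 1033 bp downstream. The TSS lay inside the stretch for 9.06% of single peaks, 21.5% below 1 kb, 61.5% at 1 to 2 kb and 65.4% (59.2 to 71.2) of wide stretches. Wide stretches ended a median of 1963 bp (1851 to 2099) downstream and began 316 bp (244 to 426) upstream. None of the 257 wide stretches lay wholly upstream, with an exact interval that reaches 1.43%, while 28.7% of single peaks did. These differences between classes are partly set by width, since a wider stretch near a TSS covers it and reaches past it more readily. Of the 168 wide stretches with the TSS inside, 149 (88.7%) were longer on the downstream side.

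The peaks themselves showed the same lean, with the same limit on the listed TSS. Among genes with a wide stretch, the bin with most peaks lay 600 to 800 bp downstream of the TSS, where 79.0% of the genes had one. For stretches of 1 to 2 kb it was the same bin (72.8%), below 1 kb it was 400 to 600 bp downstream (54.8%), and for single peaks 0 to 200 bp downstream (24.0%). Just upstream of the TSS the share dipped: with a wide stretch it was 50.6% from 400 to 200 bp upstream, 31.9% in the last 200 bp before the TSS and 60.7% in the first 200 bp after it.

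**Figure D2:**
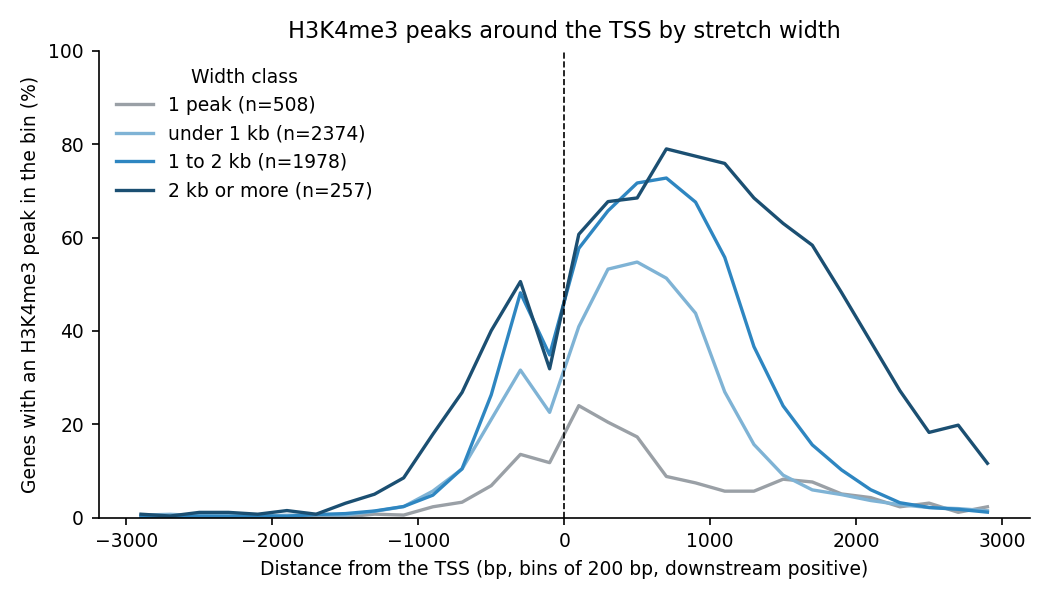
Share of genes with an H3K4me3 peak (y axis, %) in bins of 200 bp around the TSS (x axis, bp, downstream positive), for genes with no other TSS within 10 kb, by the width class of their stretch. Each curve dips in the last bin before the TSS and is highest downstream of it, at 79.0% for stretches of 2 kb or more.

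The same 5117 genes were sorted by where the TSS fell. In 2062 (40.3%) it was inside a stretch, in 1032 (20.2%) between stretches on either side, in 1841 (36.0%) the mark was downstream only, and in 182 (3.56%) upstream only. Genes with the TSS between stretches had a narrower widest stretch than those with the TSS inside one, 740 against 1271.5 bp, but both had a median of 6 peaks in all. Their FPKM was close, with medians of 10.5 (9.42 to 11.5) and 9.15 (8.41 to 9.95), and 93.0% and 85.1% of them were expressed. Genes marked upstream only stood apart, with a median of 1 peak, a median FPKM of 0.105 (0.0694 to 0.153) and 25.3% (19.1 to 32.2) expressed.

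Genes with wider stretches had higher expression, with the largest steps between the narrow classes. The median FPKM was 0.00624 (0.00414 to 0.00781) in 6387 genes with no stretch at the TSS, 0.332 (0.245 to 0.509) in 658 genes with a single peak and 7.57 (6.999 to 7.98) in 3246 genes with a stretch below 1 kb. The value at single peaks was 1.11 FPKM joined at up to 300 bp, 0.156 joined at up to 1000 bp and 0.0960 with the widest stretch anywhere in the locus. It was 13.2 (12.6 to 14.2) in 2643 genes at 1 to 2 kb, 20.8 (17.7 to 25.1) in 330 genes at 2 to 3 kb and 18.2 (7.37 to 34.7) in 25 genes at 3 to 4 kb. The last 2 classes do not differ beyond their intervals. Genes of at least 1 FPKM are called expressed (background 47.6% of analysed genes, and 82.3% of those with a stretch). They made up 10.2% with no stretch, 40.6% with a single peak, 80.1% below 1 kb, 93.5% at 1 to 2 kb and 95.8% (93.1 to 97.6) with a wide stretch. An FPKM of 100 or more was found in 3.88% of genes below 1 kb, 6.81% at 1 to 2 kb and 11.8% of those with a wide stretch.

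The distributions behind these medians were broad and overlapped. With a wide stretch the middle 50% of genes ran from 8.32 to 55.7 FPKM, and at 1 to 2 kb from 5.40 to 30.8 FPKM. With the genes ordered by width and split into 10 equal groups, the median FPKM was 0.373 in the narrowest group, 4.12 in the next, 10.3 in the fifth and 19.1 in the widest. Over 6902 genes Spearman's rho of width and FPKM was 0.381, a description across genes of 1 library each, which share depth and library. It fell to 0.205 over the 5677 expressed genes and to 0.156 over the 2998 genes with a stretch of at least 1 kb. Read the other way, the median width was 341 bp (306 to 371) for genes under 0.1 FPKM that had a stretch, 901 bp at 1 to 10 FPKM, 1056 bp at 10 to 100 FPKM and 1519 bp (1316 to 1871) in 25 genes at 1000 FPKM or more, of which 6 were wide.

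Genes with stretches of like width differed in FPKM by the presence of H3K27ac. Of genes with a stretch at 1 to 2 kb, the 126 without H3K27ac on any of its peaks had a median of 1.20 FPKM and 52.4% (43.3 to 61.3) were expressed, while the 2517 with H3K27ac had 14.2 FPKM and 95.5% (94.6 to 96.3) expressed. Below 1 kb the medians were 0.539 and 10.9 FPKM, and at single peaks 0.128 and 6.34 FPKM. Only 7 genes with a wide stretch lacked H3K27ac, with a median of 0.636 FPKM, against 20.8 FPKM in the other 348. Within the genes that had H3K27ac, the median still went from 6.34 FPKM at single peaks to 20.8 FPKM at wide stretches. Spearman's rho with FPKM was 0.506 for the number of H3K27ac peaks in the stretch, 0.458 for H3K9ac peaks, 0.391 for all its peaks and -0.08 for peaks with neither acetylation.

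**Figure D3:**
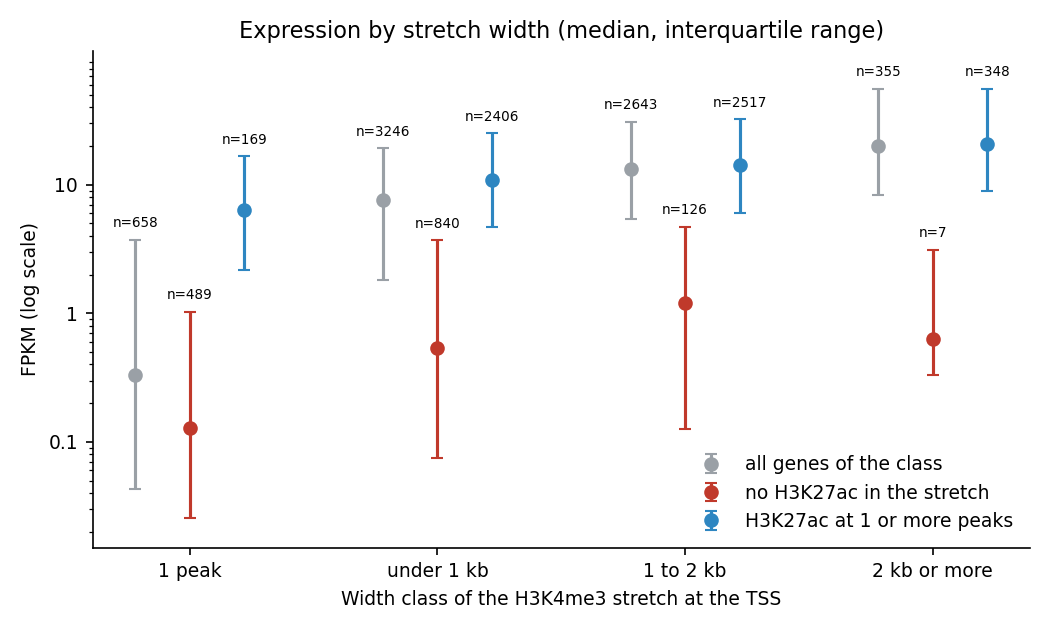
FPKM (y axis, log scale) of genes by the width class of the H3K4me3 stretch at the TSS (x axis), for all genes of the class, genes whose stretch lacks H3K27ac and genes whose stretch has it; points are medians, bars the interquartile range, and n the number of genes. Medians go from 0.332 at single peaks to 20.1 at 2 kb or more over all genes, and in each class the genes without H3K27ac lie below those with it.

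Pooled over all peaks of a class, wider stretches were also more often acetylated nucleosome by nucleosome. Among single peaks 47.2% (46.0 to 48.4) carried H3K9ac and 38.9% (37.8 to 40.0) carried H3K27ac. The shares were 65.8% and 50.6% below 1 kb, 73.1% and 59.5% at 1 to 2 kb, and 73.5% (72.5 to 74.4) and 63.8% (62.8 to 64.9) in wide stretches. H3K27me3, the mark of Polycomb repression, went the other way, from 1.93% (1.63 to 2.28) of single peaks to 0.597% below 1 kb, 0.101% at 1 to 2 kb and 0.0482% (0.0131 to 0.123) in wide stretches, which is 4 of 8305 peaks. H3K9me3, the mark of constitutive heterochromatin, was on 0.171% of single peaks and 0.229% of peaks in wide stretches, whose intervals overlap.

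Acetylation was least frequent at the edges of a stretch. In wide stretches H3K27ac was on 40.7% (38.3 to 43.3) of the outermost peaks, 56.8% of the second from the edge, 68.9% of the third and 76.1% (73.9 to 78.2) of the fourth, then on 74.7% (72.2 to 77.2) of the fifth and 71.7% (68.0 to 75.1) of the sixth. H3K9ac went from 51.4% at the edge to 82.9% at the fourth peak and was 81.9% and 81.5% at the next 2. The outermost peaks of stretches of 1 to 2 kb had H3K27ac as rarely, at 41.4% (40.5 to 42.4), close to the 38.9% of single peaks. Peak height is not in the lists, and its part in this order was not tested. At each place from the first to the fifth, both marks were less frequent in wide stretches than at 1 to 2 kb, in part with overlapping intervals. On the second peak H3K9ac was at 70.6% (68.3 to 72.9) in wide stretches and 76.3% (75.5 to 77.1) at 1 to 2 kb. H3K27ac there was at 56.8% (54.2 to 59.3) and 60.7% (59.8 to 61.6). The part of place in the higher pooled shares of wide stretches was not tested.

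**Figure D4:**
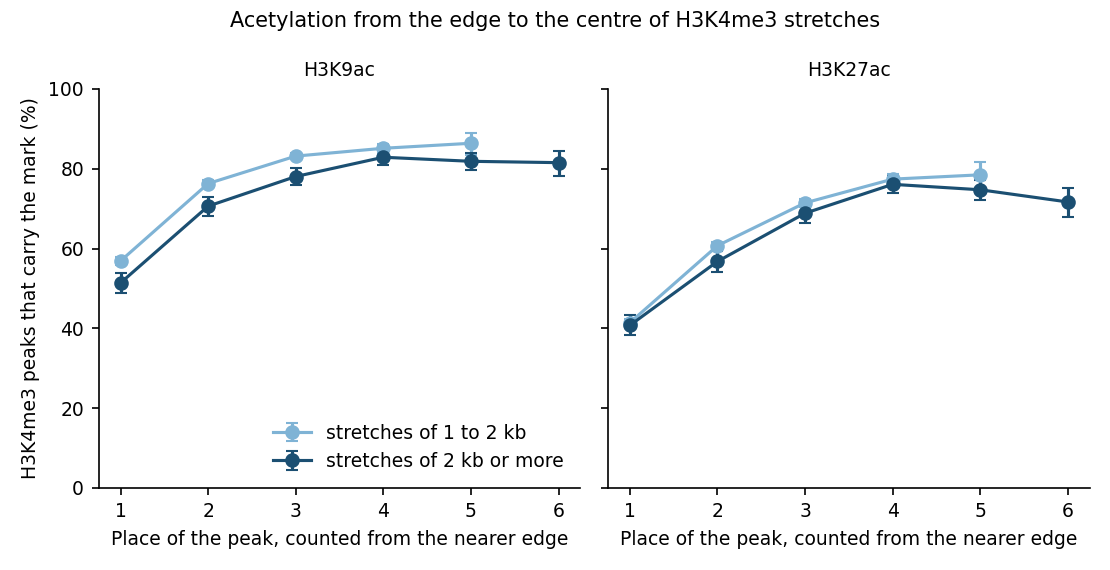
Share of H3K4me3 peaks that also carry H3K9ac (left) or H3K27ac (right), in % (y axis), by the place of the peak counted from the nearer edge of its stretch (x axis), for stretches of 1 to 2 kb and of 2 kb or more; bars are exact 95% intervals. H3K27ac climbs from 40.7% at the edge of wide stretches to 76.1% at the fourth peak and is 71.7% at the sixth, and H3K9ac goes from 51.4% to 82.9% and 81.5%.

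The 20 widest stretches ran from 4006 down to 3346 bp, the next being 3316 bp, and held 13 to 21 peaks each. Of their 310 peaks, 74.8% carried H3K9ac, 69.0% H3K27ac, 0 H3K27me3 and 0 H3K9me3. Of these stretches, 7 lay at the TSS of an analysed gene and 4 lay inside another locus with coordinates of its own. The other 9 overlapped loci that share coordinates, whose FPKM and TSS are less certain. Among these 9, the stretches at ANP32A, AMBRA1, IGF2BP1 and CRYAA lay within 1 kb of a listed TSS of the shared locus. Positions of stretches are in hg19.

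The widest stretch of all lay in NQO1, a quinone reductase of the oxidative stress response, at chr16:69757299-69761304. It held 17 peaks, of which 12 carried H3K9ac and 15 H3K27ac, and FPKM was 282.7 and 285.7 in the first and second column. The stretch began 2860 bp downstream of the listed start of the locus, so that NQO1 counts as a gene without a stretch at the TSS. The second widest (3916 bp, 18 peaks, 6 with H3K27ac) lay in the locus that SERPINA3 and SERPINA5 share, genes of secreted protease inhibitors with 255.96 and 191.80 FPKM.

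At the analysed genes whose TSS lay within 1 kb of 1 of the 20 widest, mean FPKM ran from 1.56 to 1250.8. A stretch of 3586 bp on chromosome 8 covered the facing starts of COPS5, a subunit of the COP9 signalosome, with 31.8 and 35.4 FPKM, and CSPP1, a centrosome and spindle protein, with 3.02 and 3.17 FPKM. VEGFA, the main growth factor of blood vessels, had 3496 bp at chr6:43737624-43741119 and 38.0 and 39.0 FPKM. SALL1, a zinc finger transcription factor, had 3458 bp and 7.399 and 7.009 FPKM. FST had 3429 bp at chr5:52775464-52778892, with 30.3 and 30.5 FPKM. BTBD11, a protein with BTB and ankyrin domains, had 3403 bp and only 1.54 and 1.59 FPKM. APOB, the scaffold protein of low-density lipoprotein, had 3391 bp and 1237 and 1265 FPKM. SPRY4, a feedback inhibitor of receptor tyrosine kinase signalling, had 3386 bp and 13.2 and 12.2 FPKM. Width at these promoters thus went with levels from BTBD11 to APOB, and APOB had H3K27ac at 5 of its 16 peaks where FST had it at 10 of 14.

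Among the 20 widest away from an analysed TSS, NEDD9, a scaffold protein of focal adhesions, had the most peaks of any stretch. Its 21 peaks over 3561 bp lay 149795 bp downstream of the listed start, with H3K27ac at 4 of them, and FPKM was 20.8 and 19.8. DHRS3, a retinal reductase, had 3556 bp starting 1155 bp downstream of its listed start, with H3K27ac at 15 of 17 peaks and 15.6 and 13.8 FPKM. MAN1A1, a mannosidase of the Golgi, had 3386 bp at 6435 bp downstream and 160.2 and 168.1 FPKM. The shared loci were those of SOX12 and NRSN2 (3636 bp), KIAA0182 and GINS2 (3628 bp), ANP32A (3621 bp), AMBRA1 (3566 bp), GATA2 (3521 bp), MLL5 and SRPK2 (3521 bp), IGF2BP1 (3363 bp) and CRYAA (3346 bp). ANP32A, an acidic nuclear protein, was the only 1 of the 20 with H3K27ac on all its peaks, 15 of 15.

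Lists of liver genes had a higher median width than all genes. Counts below are over the analysed members of lists that were chosen with earlier results known. The background is 51.9% of genes with a stretch and 5.14% of those wide, and the median width over all genes with a stretch is 901 bp. The 51.9% is over expressed and unexpressed genes together, while of 6331 expressed genes only 654 (10.3%) had no stretch. Joined at up to 300 bp, the median was 778.5 bp (453 to 939) for hepatocyte transcription factors and 701 bp (566 to 1281) for liver plasma proteins. Over all genes it was then 561 bp (551 to 569), which lies within the first of these intervals. Of 19 hepatocyte transcription factors, 16 had a stretch, with a median of 1496 bp (939 to 2161), and 4 were wide. NR1H4, the bile acid receptor FXR, had 3241 bp and 36.2 and 36.8 FPKM. HHEX, a homeobox factor of liver development, had 2584 bp and 33.8 and 35.1 FPKM. FOXA2, a pioneer factor of endoderm, had 2451 bp and 13.9 and 14.1 FPKM. In these 3 genes 11 of 14, 11 of 13 and 13 of 14 peaks carried H3K27ac. NR0B2, the repressor SHP, had the highest FPKM of the list (74.0 and 76.2) with 1966 bp, and CEBPA, next at 70.6 and 71.5 FPKM, had 1131 bp. GATA4, with 12.2 and 11.5 FPKM, had no stretch at its listed TSS.

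Of 33 liver plasma protein genes, 20 had a stretch, with a median of 1399.5 bp (1031 to 2091), and 6 were wide, APOB being the widest. The median FPKM of these 20 was 453.2. AFP had 2206 bp and 12 peaks at 3732 and 3864 FPKM, and none of these peaks carried H3K27ac while 4 carried H3K9ac. AGT, the angiotensin precursor, also had 2206 bp, with H3K27ac at 6 of 12 peaks and 428.3 and 434.9 FPKM. ALB had 2115 bp with H3K27ac at 7 of 9 peaks and 9933 and 10088 FPKM. APOA2, an apolipoprotein of high-density lipoprotein, had 1711 bp with both acetylations at 12 of 12 peaks and 5095 and 5323 FPKM. AFP and ALB thus shared high expression and wide H3K4me3, on the promoters printed above with the fewest CG, and differed in H3K27ac. Narrow stretches occurred in this list too: HP (haptoglobin) and TTR (transthyretin) had 1 peak each at 134.8 and 152.2 FPKM. Of the 13 without a stretch at the TSS, 12 were expressed, SERPINA1 and TF among them. These 12 of 32 expressed members are a larger share than the 10.3% over all expressed genes.

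Of 34 ERK feedback and immediate early genes, 29 had a stretch, with a median of 1359 bp, and 4 were wide. Besides SPRY4 these included KLF6, a zinc finger factor also counted among tumour suppressors (2541 bp, 19.7 and 19.7 FPKM), and DUSP6, the phosphatase of ERK (2404 bp, 14.3 and 14.4 FPKM). MCL1, an anti-apoptotic BCL2 relative, had 1768 bp and 65.3 and 65.8 FPKM, and CTGF, a matricellular protein, 1527 bp and 64.9 and 63.1 FPKM. Of 34 Notch, Wnt, TGF-beta and Hedgehog pathway genes, 26 had a stretch, with a median of 969.5 bp, and 4 were wide. AXIN2, a negative regulator and target of Wnt signalling, had 3188 bp with H3K27ac at 11 of 13 peaks and 19.4 and 18.9 FPKM. CITED2, a CBP/p300-binding regulator, had 3096 bp and 9.60 and 10.2 FPKM. SKI, a repressor of SMAD signalling, had 2883 bp but H3K27ac at only 1 of 15 peaks, with 13.3 and 13.4 FPKM. CTNNB1, beta-catenin itself, had 1821 bp and 170.7 and 168.9 FPKM.

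Lists of housekeeping genes followed, with a stretch at 87.5% to 100% of their members. Nearly all these members were expressed, and only 10.3% of all expressed genes had no stretch, so such shares are usual for expressed genes. All 26 DNA replication and mitosis genes had one, with a median of 1063.5 bp, and MAD2L1, a spindle checkpoint protein, was the single wide one (2043 bp, 82.3 and 81.0 FPKM). The list's next widest were ORC2 (1903 bp) and RFC1 (1901 bp), of the origin recognition complex and the clamp loader. TOP2A, with the highest FPKM (131.9 and 130.2), had 856 bp, and the kinase gene CDK1 (79.8 and 84.5 FPKM) had 571 bp. All 37 mitochondrial ribosomal protein genes had a stretch, with a median of 1033 bp, and 1 was wide, MRPL14 (2166 bp, 92.6 and 99.3 FPKM). MRPL46 and MRPS11 face each other and share 1 stretch of 1736 bp. MRPL27 and MRPL41, both with a mean of 101.4 FPKM, had 1251 and 669 bp.

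Of 27 proteasome subunit genes, 25 had a stretch, with a median of 1084 bp, and 2 were wide, PSMA6 (2456 bp, 477.7 and 480.6 FPKM) and PSMA5 (2093 bp, 45.0 and 44.9 FPKM). PSMD13 had 1986 bp and PSMB5, at 369.9 and 363.8 FPKM, 1206 bp. Cytosolic ribosomal protein genes were the widest of these lists. Of 32, 28 had a stretch, with a median of 1371 bp, and 3 were wide: RPL37A (2206 bp, 2929 and 3134 FPKM), RPLP0 (2059 bp, 1302 and 1300 FPKM) and RPS13 (2041 bp, 1084 and 1167 FPKM). Counting of these genes could be shared with their processed pseudogenes, so their FPKM is less certain.

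Tumour suppressors and the H3K4 machinery did not stand out by their median. Wide stretches were 9.52% and 21.4% of those with a stretch, above the background of 5.14% but on few genes. For tumour suppressors the paper cites H3K4me3 peak widths of low resolution, a measure unlike the joined nucleosomes here. Of 26 tumour suppressors, 21 had a stretch, with a median of 872 bp, and KLF6 and ARID1A were the 2 wide ones. ARID1A, a subunit of the BAF remodelling complex, had 2059 bp and 9.42 and 9.73 FPKM. VHL, of the ubiquitin ligase for HIF, had 1986 bp and 36.8 and 36.6 FPKM. CDKN1A, the p21 inhibitor of cyclin-dependent kinases, had the highest FPKM of the list (86.5 and 84.9) and a single peak of 146 bp as the widest of 2 stretches. Of 19 genes for H3K4 methyltransferases, readers and demethylases, all expressed, 5 had no stretch, a larger share than the 10.3% over all expressed genes. The 14 with a stretch had a median of 726 bp. The 3 wide ones were BPTF, a reader of H3K4me3 (2071 bp, 11.9 and 12.7 FPKM), ASH2L, a core subunit of the methyltransferases (2056 bp, 27.2 and 26.7 FPKM), and MLL3, a methyltransferase (2056 bp, 3.70 and 3.92 FPKM). DPY30, a further core subunit and the highest in FPKM (43.3 and 42.7), had 856 bp.

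Genes of other lineages mostly lacked the mark. Of 28 transcription factors of other lineages, 1 was expressed and 7 had a stretch, with a median of 591 bp. SOX9, a factor of cartilage and bile duct, was the expressed one, with 3089 bp, H3K27ac at 11 of 13 peaks and 40.1 and 39.5 FPKM. POU3F2, a neural factor, had 1291 bp of H3K4me3 with neither acetylation on its 5 peaks, at 0.0111 and 0.0126 FPKM. MITF, the melanocyte factor, had 1066 bp without H3K27ac at 0.161 and 0.171 FPKM, and NKX2-5, the heart factor, 591 bp without H3K27ac at 0.671 and 0.797 FPKM. Only the expressed member of the 7 had H3K27ac in its stretch. Of the 9 HOX genes that were analysed, 2 had a stretch and 0 were expressed. HOXA13, a factor of the distal limb, had 316 bp without H3K27ac at a mean of 0.144 FPKM. None of 318 olfactory receptor genes had a stretch, and none was expressed: the highest were OR2F1 (0.534 and 0.546 FPKM) and OR52N4 (0.126 and 0.360 FPKM).

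The largest list, of 344 ZNF genes, had a stretch at 263, with a median of 891 bp close to that of all genes. Wide stretches were few in it, 2 of 263 or 0.760% against the background of 5.14%, namely at ZNF850 (2051 bp, 1.34 and 1.38 FPKM) and ZNF181 (2048 bp, 3.52 and 4.06 FPKM). ZNF398 followed with 1996 bp and 2.29 and 2.49 FPKM. The members of highest FPKM, ZNF664 (42.4 and 45.2) and ZNF593 (39.6 and 38.1), had 919 and 819 bp. Near-identical zinc finger genes can share reads, which makes their FPKM less certain.

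**Figure D5:**
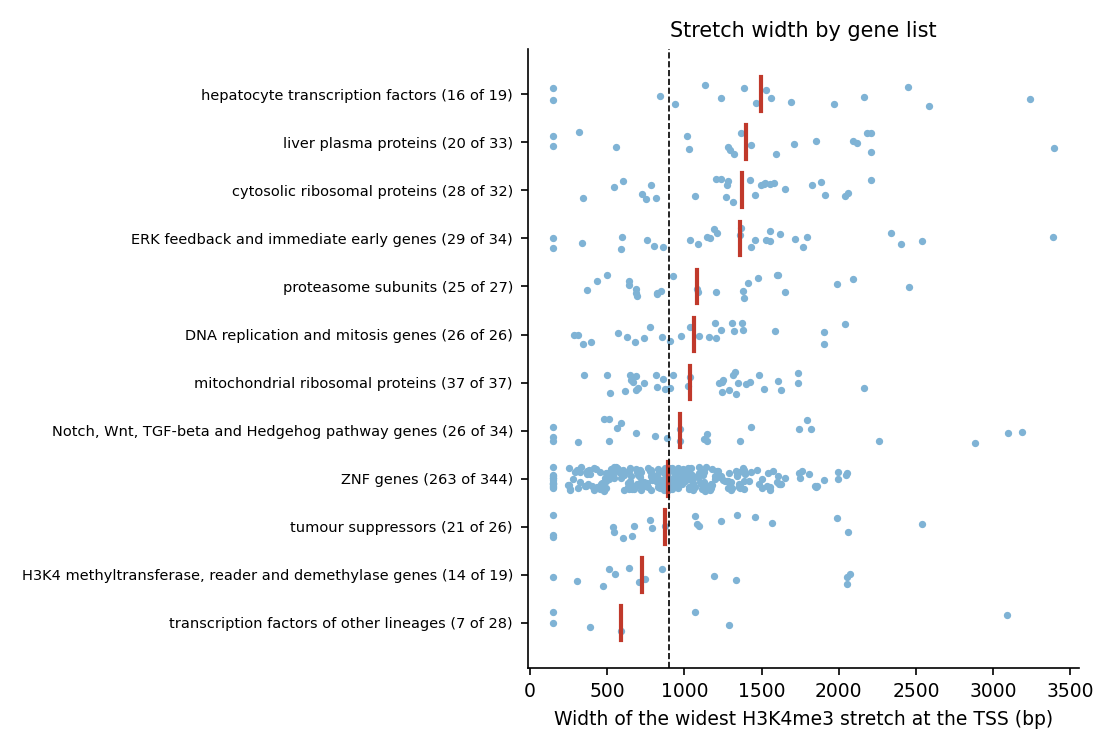
Width of the widest H3K4me3 stretch at the TSS (x axis, bp) for members of 12 gene lists (rows, with the number of members that have a stretch of those analysed); points are genes, red bars the median of the list, and the dashed line the median of 901 bp over all genes with a stretch. Medians run from 591 bp for transcription factors of other lineages to 1496 bp for hepatocyte transcription factors.

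Some long stretches, most of them just under 2 kb, lay at genes with almost no RNA. By the rule of the widest stretches at genes under 0.1 FPKM with no other analysed gene there, 2 of the 5 were at microRNA genes, MIR3193 (2696 bp) and MIR3180-4 (2008 bp), whose short RNA this assay does not measure well. The stretch at MIR3193 lies in the locus of ID1, an inhibitor of helix-loop-helix factors with 266.9 and 266.3 FPKM that had no stretch at its own listed TSS. The other 3 were protein-coding. BCL11A, a repressor of fetal globin, had 1711 bp at 0.111 and 0.0382 FPKM. FAM46C, a poly(A) polymerase gene, had 1701 bp at 0.0244 and 0.0371 FPKM. NXPH3, a secreted neurexophilin, had 1696 bp at 0.114 and 0.0786 FPKM. None of the peaks in these 3 carried H3K27ac, and H3K9ac was on 3 of 8 in NXPH3 and on 0 of 7 in BCL11A and FAM46C, whose CpG-rich promoter is printed above. H3K27me3 was on 1 peak of BCL11A and on 0 of the other 2.

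Of the 761 wide stretches, 12 (1.58%) had no H3K27ac on any peak, a share that depends on the median of 10 peaks a stretch. Those at named loci, given after their values were seen, included the developmental transcription factor genes FOXC1 (2876 bp), EMX1 (2781 bp), RUNX2 (2081 bp) and ATOH8 (2209 bp, 0.636 FPKM), the ligand gene WNT11 (2484 bp) and MMP17, a membrane metalloproteinase (2416 bp, 0.634 FPKM). At RUNX2, a factor of bone, 3 of the 10 peaks carried H3K27me3. MAP1B, a microtubule protein of neurons, had 2268 bp and 3.54 FPKM. AFP was the exception in level, at 3798 FPKM.

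The reverse case, an FPKM of at least 1 and no stretch at the TSS, was seen at 654 of 6331 expressed genes (10.3%). Only 29 genes without a stretch had 100 FPKM or more. Among the 654, a stretch elsewhere in the locus or within 1 kb of it was found at 468 (71.6%, 67.9 to 74.99). Those of highest FPKM included RPS29 (2662 and 2749), SERPINA1, alpha-1-antitrypsin (1064 and 1058), MTRNR2L9 (1130 and 934.0) and TF, transferrin (1005 and 1006). Of these, all but MTRNR2L9 had a stretch further into the locus, of 1846 bp in RPS29, 2366 bp in SERPINA1 and 2106 bp in TF, at 1587, 2245 and 33455 bp from the listed start. MTRNR2L9 is a near-identical copy of a mitochondrial sequence, so its FPKM is uncertain. The 186 expressed genes with no stretch at all in the locus had a median of 2.44 FPKM, against 11.5 in the 468. The share of 71.6% has no background beside it, since it is not given over all genes without a stretch at the TSS.

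Outside every named locus, the 5 widest stretches were 3163, 2946, 2928, 2734 and 2671 bp. Their nearest named loci were HS3ST3B1 (24072 bp away), POR (37804 bp), LOC100129138 (337023 bp), HIST1H2BL (135153 bp) and RUNDC2C (28737 bp). Overlapping unnamed transcripts reached 2.5002 FPKM at the first, 7.66 at the second and 0.745 at the last, and the other 2 overlapped none. Acetylation was found in all but 1 of these. The stretch near HIST1H2BL, at chr6:27635301-27638034, had 13 peaks and 0 with H3K9ac, H3K27ac, H3K27me3 or H3K9me3.

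The CpG content of the promoter varied little with width. CG was counted in the 300 bases of the RefSeq promoter, from 250 before to 50 after the start, averaged over a gene's starts, and chromosome 8 was left out. A promoter was matched for 5405 of 6650 genes with a stretch (81.3%). The median was 26 CG (25 to 26) below 1 kb, 26 (25.5 to 26.5) at 1 to 2 kb and 25.7 (25 to 27) for wide stretches, and Spearman's rho of width and CG was 0.01, a description across genes. For genes with a single peak, with no stretch or with 3 to 4 kb fewer than 80% had a promoter in the table, so no value is given for them.

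Promoters with few CG carried wide stretches at some of the most highly expressed genes. Of 286 genes with a wide stretch and a matched promoter, 17 (5.94%) had fewer than 10 CG. This is close to the background of 6.62% over the 5405 genes with any stretch and a matched promoter. The median was 57.4 FPKM (9.10 to 326) in the 17 and 21.4 (17.8 to 26.7) in the other 269. The intervals overlap. The 17 held ALB, AFP, AMBP, FGG and FABP1, genes of secreted or fatty acid-binding liver proteins with at least 267.2 FPKM. They also held genes of low FPKM, among them C17orf44 at 0.245, AKAP6 at 0.810 and HIST1H2AM at 3.70. In the narrower classes the order of the medians was the other way, with intervals that overlap at 1 to 2 kb but not below 1 kb. At 1 to 2 kb the median was 10.1 FPKM (6.73 to 15.2) in 115 genes with fewer than 10 CG and 13.7 (12.9 to 14.8) in 2000 others. Below 1 kb it was 3.17 FPKM (1.99 to 4.9996) in 174 genes with fewer than 10 CG and 8.67 (8.03 to 9.37) in 2357 others.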

How the data were processed

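HepG2 ChIP-Seq, native MNase-Seq and RNA-Seq of 1 sample each were used as deposited. According to the paper's methods, the authors called nucleosome positions with DANPOS and peaks at these positions with NUCLIZE. Its limits were 0.01 on the false discovery rate and 4-fold on enrichment, with tests against the local ChIP background and against input. Peaks of oblique or U shape were also filtered out. The part of these filters in stretch width and in missing peaks was not tested. The authors deposited coordinates without heights or counts. The labels give hg19 and name BWA, Bowtie, TopHat2 2.1.0 and HOMER 4.7 among the tools. The authors deposited FPKM in 2 columns, in the layout of Cuffdiff. Their own comparison of both columns (fold change, p-value and q-value) was not used, and 0 columns of other samples were present.

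Peaks were sorted by start and joined where starts were at most 500 bp apart, and width ran from the first start to the last end. Marks were matched by the identifier of the nucleosome position. Deposited starts, which count from 0, were raised by 1. The strand came from the order of locus numbering. Loci that share coordinates, have several symbols or repeat a symbol were left out, and 13289 genes remained. Gene lists are therefore incomplete: among the 13289 were 26 of 46 listed tumour suppressors and 19 of 29 hepatocyte transcription factors. Of the liver plasma proteins 33 of 45 were among them, and of the H3K4 methyltransferase, reader and demethylase genes 19 of 35. A gene's stretch was the widest overlapping its TSS ± 1 kb. Shares have exact Clopper-Pearson intervals and medians order-statistic intervals at 95%, which cover counting error only. No test was run, since each assay has 1 sample. Depth is unknown.

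The genes named are those of the 20 widest stretches, the 5 widest stretches at silent genes (under 0.1 FPKM), the 5 expressed genes of highest FPKM without a stretch at the TSS, the 5 widest outside named loci, and of each of 14 lists the 3 widest and 2 of highest FPKM. Other genes are named as examples chosen after their values were seen. Some genes that the rule names are not reported here. Members, lists and classes were chosen with earlier results of these data known. Joining and width steps were tested on simulated peaks. Alternatives were the joining distance, the TSS window, the gene set, single FPKM columns, autosomes, the limit of expression, pseudocounts of 0.01 and 1 and, added after seeing the data, the widest stretch anywhere in the locus. The scripts ran under Python 3.11.15 with pandas 2.3.3, numpy 2.4.6, matplotlib 3.10.9 and scipy 1.17.1.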

Additional observations from a re-analysis of the deposited data

How the results depend on the processing

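Of the values recomputed, 1 changed sign: joined at up to 1000 bp, the median stretch began 235 bp upstream of the TSS, not 49 bp downstream. Of 77 alternative values with an interval, 38 stayed within that of the reported value and 38 others moved beyond it. Some of the moved values use another definition, such as width counted in peaks or a limit of 0.1 FPKM. These need not fall within the reported interval, so the tally is no measure of robustness. At 300 and 1000 bp the median width was 306 and 851 bp, that of genes' stretches 561 and 1276 bp, the share of stretches of 2 kb or more 0.222% and 9.63%, the H3K27ac share of single peaks 48.4% and 31.3%, the median FPKM at single peaks 1.11 and 0.156, the share of their genes expressed 51.4% and 30.6%, and the downstream reach 819 and 1033 bp. At 300 bp alone, the H3K27ac share of wide stretches was 59.7%, their median CG 24.5, the stretch began 156 bp downstream (a value of -156), and the median widths of hepatocyte transcription factors and plasma proteins were 778.5 and 701 bp. At 1000 bp alone, 33.7% of stretches lay at a TSS and wide stretches had 16.8 FPKM.

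With all named loci, 47.1% of stretches lay at a TSS, the median FPKM was 0.636 at single peaks and 17.3 at wide stretches, and 46.0% and 89.6% of their genes were expressed. With a window of 2 kb these were 38.0% of stretches, 0.236 FPKM and 34.7% expressed at single peaks. Counted only where the TSS was inside, 10.7% of stretches lay at a TSS. With a limit of 0.1 FPKM, 64.6% (single peaks) and 97.7% (wide) were expressed, and without near neighbours 97.7% of the wide. With near neighbours kept, the stretch ran from -21 to 903 bp. The widest stretch anywhere in the locus, an alternative chosen after seeing the data, gave 0.0960 FPKM and 24.7% expressed at single peaks. Counted in peaks, the median width was 3.

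Over 13 alternatives with no interval, the correlation of width and FPKM ranged from 0.292 with all named loci to 0.455 with the widest stretch in the locus. No paired analysis was possible because each assay has 1 sample. A stricter peak threshold could not be set, since the lists hold no scores, and depth limits what a missing peak can show.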

Other observations

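The density of H3K4me3 stretches differed between chromosomes more than their width did. Chromosome 19 had 5.76 stretches per 1000 nucleosome positions, chromosome 22 had 3.53 and chromosome 17 had 3.52, while chromosome 4 was the lowest autosome at 1.04. Median widths of autosomes ran from 363 bp on chromosome 18 to 642.5 bp on chromosome 20. Wide stretches made up 5.44% of those on chromosome 2 and 1.47% of those on chromosome 19. The number of genes on each chromosome was not set beside these values, and the copy number of chromosomes in this line was not measured here. The part of either in these values was not tested.

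The 2 FPKM columns differed little at genes of any stretch width. At 5 to 20 FPKM the median absolute log2 ratio of the columns was 0.06 at single peaks, 0.07 below 1 kb, 0.06 at 1 to 2 kb and 0.05 with a wide stretch. The interquartile ranges overlapped in this band, 0.03 to 0.09 with a wide stretch and 0.03 to 0.11 at single peaks.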
